A study of Mus musculus with 6 samples.

Results

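The 10 genes Il6, Tnf, Il10, Il12b, Cd80, Cd86, Cd40, Tlr2, Tlr4 and Nos2 were picked by symbol from the 33456 genes counted in single cells of mouse visceral fat, and each matched 1 gene. They are the readouts most often used for classical inflammatory activation of macrophages, together with Il10, its best-known brake. Cells were sorted from digested epididymal fat for CD45, found on nearly all leukocytes, together with CD11b, an integrin subunit typical of myeloid cells. The high-fat diet group, labelled HFD, had 3 samples, and the control diet group had 3. No label gave a genotype or an agent other than diet, and the strain, the age, the sex and the weeks on the diet are not given in the sources used here beyond a series title that speaks of long-term obesity. Whether each sample was 1 animal or a pool is likewise not given. Every p-value therefore rests on the spread among the samples in its fit, and that spread can be technical alone. The fits used all 6 samples, or fewer where stated.

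In a macrophage or dendritic cell, Toll-like receptors at the surface bind microbial products such as lipopeptides (Tlr2, as a pair with a related receptor) and lipopolysaccharide (Tlr4, with its partner Ly96). Both pass the signal through adaptor proteins to the kinase complex that frees NF-kB, which switches on cytokine genes, among them Tnf, Il6 and Il12b, and later Il10. The same signals raise Cd80 and Cd86, the ligands that T cells need beside antigen, and Cd40, which receives help from T cells. Nos2 makes nitric oxide and in mouse macrophages follows interferon gamma and lipopolysaccharide. In obese fat these genes are widely quoted as marks of inflamed macrophages, while Il6 is also made by fibroblast-like stromal cells.

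The promoters of Il6, Tlr2 and Tnf are shown first, a choice not made by the size of the difference alone. The reference table held 5 of the 10 members. The 250 bases before the start site are printed for Il6, which had the largest difference between the diets among the called members, for Tlr2, a receptor that was called as well, and for Tnf, which was not called. Il6 lies on the plus strand at chr5:30012864-30013113, Tlr2 on the minus strand at chr3:83841609-83841858 and Tnf on the minus strand at chr17:35202008-35202257 (RefSeq, GRCm38.p6). Capitals mark the motif matches found by letter search.
Il6: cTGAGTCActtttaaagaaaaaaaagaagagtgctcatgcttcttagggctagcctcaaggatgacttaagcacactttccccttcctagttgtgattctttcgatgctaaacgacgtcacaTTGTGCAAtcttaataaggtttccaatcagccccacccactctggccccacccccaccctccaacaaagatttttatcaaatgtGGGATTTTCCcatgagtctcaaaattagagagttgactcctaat
Tlr2: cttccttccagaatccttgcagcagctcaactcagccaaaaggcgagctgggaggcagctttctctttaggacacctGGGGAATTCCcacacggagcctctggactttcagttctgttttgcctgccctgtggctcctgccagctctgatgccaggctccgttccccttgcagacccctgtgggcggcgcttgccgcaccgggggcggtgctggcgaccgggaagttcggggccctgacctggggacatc
Tnf: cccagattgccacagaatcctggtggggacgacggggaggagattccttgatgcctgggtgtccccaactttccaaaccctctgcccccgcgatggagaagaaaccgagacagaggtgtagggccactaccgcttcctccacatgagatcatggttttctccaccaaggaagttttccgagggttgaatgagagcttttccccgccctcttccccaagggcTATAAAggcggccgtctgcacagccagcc
The search on both strands used, for NF-kB, GGG followed after any 3 bases by TTCC, and further TGANTCA for AP-1, TTGCNNAA for C/EBP and TATAAA for the TATA box. Il6 held GGGATTTTCC starting 44 bases before the start site, TTGTGCAA (TTGCNNAA read on the opposite strand) at 128 bases and TGAGTCA at 249 bases. Tlr2 held GGGGAATTCC at 173 bases, and Tnf held TATAAA at 29 bases. Cd80 held an AP-1 type match, TGATTCA, at 42 bases, and the Il12b window held none of the 4 motifs. Cd80 was called lower in HFD with a larger log2 fold change than Tlr2 (-1.65 against -0.81) and held no NF-kB type match. A link between motif and outcome was not tested. Among all 32851 promoters of the same length, 4.65% held the NF-kB type, 6.75% the AP-1 type, 9.56% the C/EBP type and 12.4% the TATA box. A match describes letters and does not show that a factor binds there.

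The same cell barcodes stood in several samples, and this bears on every value. The files listed 5511 entries (a barcode in a sample) from 2195 barcodes, and 1082 barcodes (49.3%) stood in more than 1 sample, 370 of them in all 6. Each barcode was therefore counted only in the sample where it had most unique molecular identifiers (UMIs, counts of single RNA molecules), which left 1128 HFD and 986 control cells. Samples held 295 to 453 HFD cells with 3587086 to 5708323 UMIs, and 260 to 388 control cells with 1997647 to 3874349 UMIs. The median cell had 9261 to 10079 UMIs in HFD samples and 6299.5 to 8518.5 in control samples. Clustering without the members and without the genes of the lists below gave 18 clusters. Macrophage-like cells were the most numerous class in both diets, with 551 HFD and 535 control cells, and all 10 macrophage markers were detected. Fibroblast and progenitor-like cells, which a CD45 gate should remove, made up 18.4% of HFD cells and 2.43% of control cells.

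Il6 (ENSMUSG00000025746), the interleukin 6 gene, was lower in HFD samples, and its remaining transcripts lay in other cells than in control. Summed over all cells of a sample it stood at 27.9, 38.8 and 54.8 CPM (UMIs scaled to a common total per sample) in HFD samples 1, 2 and 3, against 209, 181 and 137 CPM in control samples 1, 2 and 3. All HFD samples were below all control samples. The log2 fold change of HFD over control was -2.27 ± 0.25 (SE, n = 3 each, edgeR adjusted p = 0.00037), and genes with an adjusted p below 0.05 are called. In such sums fewer cells of a type and less RNA per cell cannot be told apart.

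The cells that carried Il6 differed by diet. Of 547 Il6 UMIs in HFD cells, 467 (85.4%) lay in fibroblast and progenitor-like cells, which held 10.5% of all HFD UMIs. Of 1542 Il6 UMIs in control cells, 63 (4.09%) lay there. Control UMIs lay instead in an unnamed cluster led by Ear2, Lyz1 and Areg (606 UMIs, 39.3%), in a serous cavity type cluster led by Saa3 and Prg4 (337 UMIs, 21.9%) and in a macrophage-like cluster led by Retnla and Areg (335 UMIs, 21.7%). These clusters, numbered 5, 13 and 7, held 5, 12 and 4 HFD cells and 150, 28 and 143 control cells. The fibroblast-like cells themselves had 321 CPM of Il6 in HFD (207 cells) and 324 CPM in control (24 cells).

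**Figure D1:**
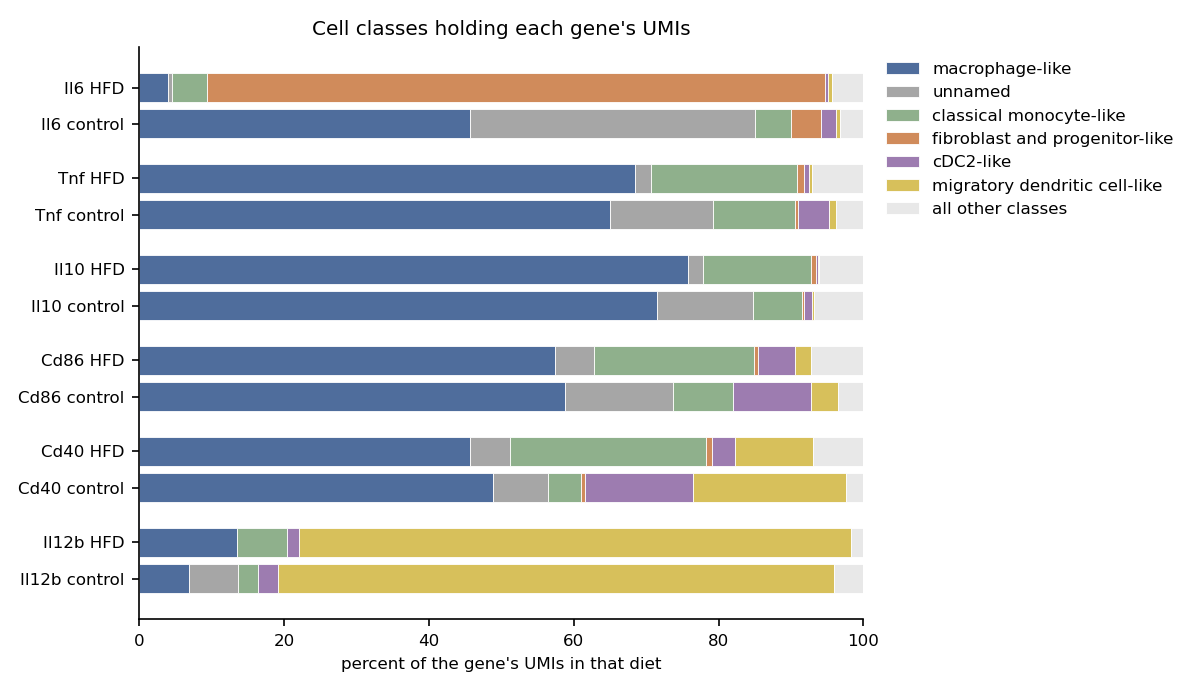
Shares of each gene's UMIs (percent of the gene's UMIs in that diet) by cell class, for 6 of the members, with the HFD bar above the control bar. For Il6, fibroblast and progenitor-like cells take 85.4% of the HFD bar and 4.09% of the control bar, while Tnf lies mostly in macrophage-like cells in both diets.

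Leaving out the fibroblast-like cells, a selection made after the data were seen, widened the Il6 difference. Il6 then stood at 6.80, 6.31 and 6.14 CPM in HFD samples and at 201, 178 and 140 CPM in control samples. The log2 fold change was -4.84 ± 0.19 (SE, n = 3 each, edgeR adjusted p = 2.5e-06, with 31.0% of 9960 genes called either way). The 9 fibroblast markers, all called higher in HFD in the sums of all cells, added up to 6711 to 7831 CPM in HFD and 952 to 2191 CPM in control samples there. Without these cells they still summed to 806 to 917 CPM in HFD and 272 to 428 CPM in control. None was at 0, and their part in what remained was not tested.

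With only the barcodes listed by a single sample, the Il6 call over all cells was lost. Il6 stood at 53.9, 124 and 111 CPM in HFD and 207, 75.9 and 121 CPM in control samples, with a log2 fold change of -0.67 ± 0.35 (SE, n = 3 each, edgeR adjusted p = 0.18), and the diets overlapped. Without fibroblast-like cells, the same barcodes gave 3.09, 8.40 and 9.22 CPM in HFD and 178, 76.3 and 124 CPM in control samples. There the log2 fold change was -4.54 and the adjusted p was 1.8e-05 (edgeR, n = 3 each, with 20% of 6087 genes called).

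**Figure D2:**
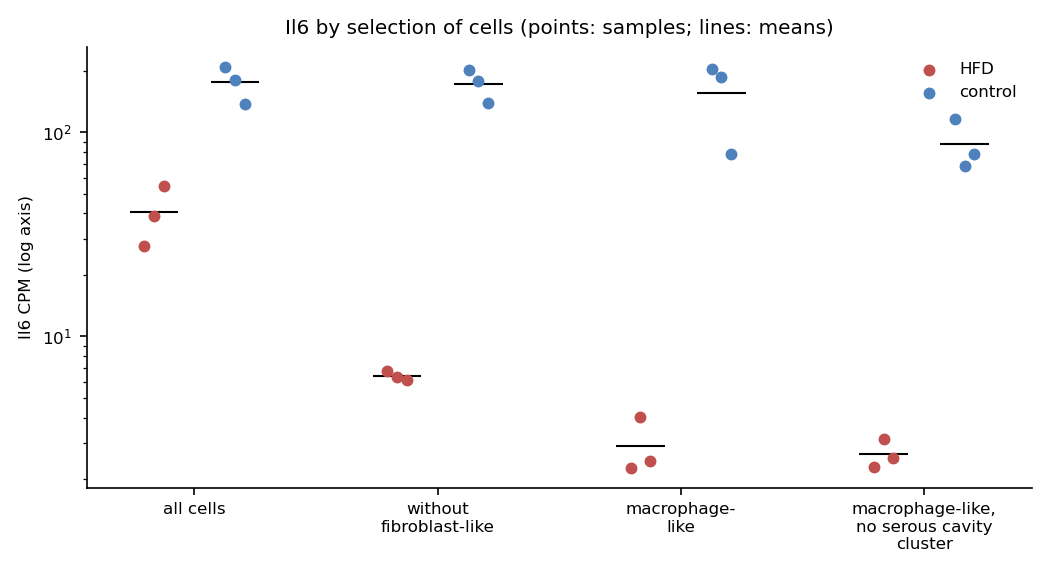
Il6 in CPM (log axis) in each sample under 4 selections of cells, HFD left of control in each pair. HFD samples sit between 27.9 and 54.8 CPM over all cells and between 2.28 and 4.02 CPM in macrophage-like cells, below the control samples in the 4 selections drawn (all cells, without fibroblast-like cells, macrophage-like cells, and these without the serous cavity cluster), all with each barcode in the sample where it had most UMIs.

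Macrophage-like cells alone were lower in Il6 in HFD as well. They held 8, 8 and 6 Il6 UMIs in HFD samples (2.28, 4.02 and 2.46 CPM) and 422, 164 and 119 UMIs in control samples (204, 186 and 78.7 CPM). The log2 fold change was -5.87 ± 0.44 (SE, n = 3 each, edgeR adjusted p = 4.2e-05). Different clusters made up the class in the diets: clusters 3, 4 and 6 held 84.9% of its HFD cells, and clusters 0, 7 and 10 held 81.7% of its control cells. Cluster 3 was led by Hpgd, Gpr34 and Gdf15, cluster 4 by the lipid-associated genes Spp1, Mmp12 and Gpnmb, cluster 6 by Mmp9 and Hilpda, cluster 0 by the perivascular genes Cd209f, Lyve1 and Cd163, cluster 7 by Retnla and Areg and cluster 10 by Hcar2 and Ccl12.

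The HFD macrophage clusters were all poor in Il6, at 1.53, 1.88 and 1.57 CPM in HFD cells of clusters 3, 4 and 6. Cluster 0 had 4.71 CPM in its HFD cells and 14.0 CPM in its control cells, and the control cells of cluster 7 had 259 CPM. The serous cavity cluster held 28 control cells, of which control sample 1 gave 19. Dropping it was also a selection made after the data were seen. Il6 then stood at 2.29, 3.16 and 2.55 CPM in HFD and at 116, 68.5 and 78.7 CPM in control samples. The log2 fold change was then -5.17 ± 0.29 (SE, n = 3 each, edgeR adjusted p = 5.8e-06, with 31.3% of 8434 genes called). The 6 serous cavity markers summed to 34.2 to 653 CPM in HFD and 41.0 to 7771 CPM in control macrophage-like cells.

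A few cells held much of the Il6. In HFD, 136 of 1128 cells (12.1%) had any Il6 UMI and 18 cells held 50% of its UMIs, with 49 in the richest and exactly 1 in 59 cells. In control, 275 of 986 cells (27.9%) had one, 40 cells held 50%, the richest held 66 and 98 cells held exactly 1. After each cell was thinned to 3000 UMIs, which left out 30 HFD and 129 control cells as too shallow, 6.28%, 8.04% and 9.02% of cells had Il6 in HFD samples and 22.3%, 16.7% and 16.4% in control samples. The unthinned shares averaged 12.2% and 27.4% (HFD and control). The thinned means were 7.78% ± 1.39 in HFD and 18.5% ± 3.35 in control (SD, n = 3 each, two-sided exact permutation p = 0.1, the smallest that 3 against 3 samples allow).

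Among macrophage-like cells thinned in the same way, 0.96% ± 0.41 in HFD and 14.6% ± 4.37 in control had Il6 (SD, n = 3 each, exact permutation p = 0.1). The thinned share was 34.2% in fibroblast-like cells (exact binomial 95% interval 28.0 to 40.8), 45.9% in cluster 5 (37.6 to 54.3) and 37.3% in cluster 7 (28.2 to 47.0). T cell-like cells, which should lack Il6, showed 7.50% (1.57 to 20.4), and macrophage cluster 4 showed 0.57% (0.01 to 3.16). Median depths before thinning were 6895 UMIs in fibroblast-like, 4480.5 in T cell-like and 16777 in cluster 4 cells. These intervals cover counting error only.

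The other cytokines did not share this pattern. Tnf (ENSMUSG00000024401), the tumour necrosis factor gene, stood at 242, 267 and 308 CPM in HFD samples and 241, 311 and 412 CPM in control samples. The diets overlapped, and the log2 fold change of -0.37 ± 0.17 did not pass the test (SE, n = 3 each, edgeR adjusted p = 0.13). In macrophage-like cells Tnf stood at 257, 331 and 410 CPM in HFD and at 327, 393 and 471 CPM in control samples, a log2 fold change of -0.33 ± 0.18 (edgeR adjusted p = 0.18). Without control sample 1 the whole-sample value was -0.53 (edgeR adjusted p = 0.027), and with barcodes of a single sample it was -1.07 (adjusted p = 0.00018, with 28.5% of 6810 genes called either way).

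Tnf was spread over many cells, with 6409 UMIs in 1217 of 2114 cells. With the diets pooled, its highest level among clusters of over 100 cells was in cluster 6, at 546 CPM in HFD cells and 546 CPM in control cells. Classical monocyte-like cells had 392 CPM in HFD and 468 CPM in control, and fibroblast-like cells had 25.4 and 66.9 CPM (HFD and control). Thinned to 3000 UMIs, 32.3% ± 1.44 of HFD cells and 41.6% ± 5.59 of control cells had Tnf (SD, n = 3 each, exact permutation p = 0.1). Fibroblast-like cells, which are not a usual source of Tnf, showed 8% at that depth, and a share at or below this is read as background. T cell-like cells, some of which can make Tnf, showed 22.5%.

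Il10 (ENSMUSG00000016529), which encodes the cytokine that restrains macrophage activation, stood at 56.1, 93.4 and 102 CPM in HFD samples and at 50.3, 58.1 and 68.6 CPM in control samples. HFD sample 1 lay within the control range, and the log2 fold change of 0.37 ± 0.22 did not pass (SE, n = 3 each, edgeR adjusted p = 0.23). Without HFD sample 1 it was 0.60 (adjusted p = 0.021), and with the barcodes of a single sample it turned to -1.15 (adjusted p = 0.0062). In macrophage-like cells Il10 stood at 70.4, 144 and 129 CPM in HFD and at 84.9, 83.0 and 70.1 CPM in control samples. The diets overlapped there, at a log2 fold change of 0.43 ± 0.24 (SE, n = 3 each, edgeR adjusted p = 0.21). Fits that left out 1 sample gave 0.27 to 0.71 (lowest edgeR adjusted p 0.013). Over 16 alternatives the value ran from -0.37 to 1.31. These cells held 75.8% of Il10 UMIs in HFD and 71.4% in control. With the diets pooled the highest levels lay in cluster 6 (155 CPM) and cluster 3 (138 CPM). Among HFD cells alone, cluster 10 had 242 CPM from 11 cells and 16 UMIs, cluster 6 had 165 CPM and cluster 3 had 139 CPM.

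Il12b (ENSMUSG00000004296), the shared subunit of interleukins 12 and 23, lay mostly in a small dendritic cell cluster. The 39 migratory dendritic cell-like cells, led by Ccr7, Fscn1 and Ccl22, held 45 of 59 HFD UMIs (76.3%) and 56 of 73 control UMIs (76.7%). Their level was 260 CPM in HFD and 212 CPM in control cells, while every other class had at most 3.35 CPM with the diets pooled. Sample sums were 4.55, 0.558 and 6.82 CPM in HFD and 4.39, 23.5 and 3.32 CPM in control. They overlapped, with a log2 fold change of -1.30 ± 0.81 (SE, n = 3 each, edgeR adjusted p = 0.25). Over both diets 4 cells held 50% of all 132 Il12b UMIs, and HFD sample 2, the lowest, held 1 cell of that cluster.

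The costimulatory ligands Cd86 and Cd80 were lower in HFD. Cd86 (ENSMUSG00000022901), a ligand for Cd28 and Ctla4 on T cells, stood at 49.4, 47.1 and 49.7 CPM in HFD samples and at 124, 99.6 and 91.4 CPM in control samples. The diets did not overlap, and the log2 fold change was -1.25 ± 0.13 (SE, n = 3 each, edgeR adjusted p = 0.00033). In macrophage-like cells it stood at 49.9, 51.2 and 46.0 CPM in HFD and 145, 108 and 99.1 CPM in control samples, with a log2 fold change of -1.36 ± 0.17 (edgeR adjusted p = 0.00039). Both calls held in each of the 6 fits that left out 1 sample. At 3000 UMIs per cell, 12.4% ± 1.33 of HFD cells and 27.4% ± 1.15 of control cells had Cd86 (SD, n = 3 each, exact permutation p = 0.1), while the share was 0.89% in fibroblast-like cells and 10% in T cell-like cells.

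Cd86 levels varied among the macrophage clusters. Cluster 4, the lipid-associated cluster that held 169 HFD and 8 control cells, had 13.1 CPM in HFD cells and 10.4 CPM in control cells. Cluster 3 had 87.7 CPM in HFD and 92.3 CPM in control cells, cluster 0 had 115 CPM in HFD and 169 CPM in control cells, and cluster 10 had 197 and 195 CPM (HFD and control). Cluster 6 had 39.7 CPM in HFD and 73.8 CPM in control cells. Markers of cDC2, a dendritic cell type, moved with Cd86 and Cd80: 7 of 8 were called lower over all cells, none was at 0, and they summed to 483 to 494 CPM in HFD and 1234 to 1288 CPM in control samples. The cDC2-like cells made up 2.84% of HFD and 9.94% of control cells. In macrophage-like cells 1 of 6 tested cDC2 markers rose and 5 fell, with sums of 430 to 472 CPM in HFD and 1081 to 1214 CPM in control samples, and their part in these results was not tested. The macrophage-like sums mixed clusters of unlike level that the diets filled unequally, and the part of this mixture in the difference was not tested.

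Cd80 (ENSMUSG00000075122), the other ligand of Cd28 and Ctla4, was sparse. It had 220 UMIs in all, never over 3 in a cell, and stood at 5.26, 6.97 and 5.28 CPM in HFD samples and 18.6, 19.0 and 11.4 CPM in control samples. The diets did not overlap, and the log2 fold change was -1.65 ± 0.26 (SE, n = 3 each, edgeR adjusted p = 0.0018). In macrophage-like cells it was -1.64 ± 0.42 (adjusted p = 0.015) from 8 to 15 UMIs per HFD sample and 8 to 30 per control sample. That call was lost without HFD sample 1 (adjusted p = 0.0503), control sample 1 (0.075) or control sample 2 (0.054). Its highest levels lay in migratory dendritic cell-like cells, at 46.3 CPM in HFD and 49.3 CPM in control, and in cDC2-like cells, at 21.2 CPM in HFD and 31.3 CPM in control.

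Cd40 (ENSMUSG00000017652), a receptor of the tumour necrosis factor family that T cells engage through Cd40lg, stood at 30.1, 26.5 and 39.2 CPM in HFD samples and 56.5, 48.1 and 36.1 CPM in control samples. HFD sample 3 lay above control sample 3, so the diets overlapped, although the log2 fold change of -0.70 ± 0.21 passed (SE, n = 3 each, edgeR adjusted p = 0.030). That call was lost without HFD sample 1 (adjusted p = 0.11), HFD sample 2 (0.11), control sample 1 (0.11) or control sample 2 (0.068), and without fibroblast-like cells (0.067). Migratory dendritic cell-like cells had the highest Cd40 level, 278 CPM in HFD and 330 CPM in control, and the summed markers of that class stood at 144 to 300 CPM in HFD and 558 to 867 CPM in control samples. Of the 8 markers, 5 were called lower in HFD, none was at 0 and their part in the Cd40 result was not tested.

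Within macrophage-like cells, Cd40 stood at 21.1, 28.1 and 30.0 CPM in HFD and at 50.2, 42.1 and 40.3 CPM in control samples. The diets did not overlap there, and the log2 fold change was -0.87 ± 0.19 (SE, n = 3 each, edgeR adjusted p = 0.0068). It remained below the threshold of 0.05 in all 6 fits that left out 1 sample (highest adjusted p 0.035). Markers of migratory dendritic cells still summed to 63.0 to 122 CPM in HFD and 170 to 188 CPM in control samples there, with 1 of 7 called lower, and the cDC2 markers given above were lower too. Their part in this result was not tested. With every entry counted in each sample that lists it, the value was -0.36 and the call was lost. It was also lost with list genes kept in clustering (-0.58). Both settings clustered the cells anew, so the class held other cells. With list genes kept, a cluster of 147 cells led by S100a9 and S100a8 carried 8 of the 10 macrophage markers but stayed unnamed. It had 10, 4 and 3 HFD cells and 40, 34 and 56 control cells in samples 1, 2 and 3.

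Of the receptors, Tlr2 (ENSMUSG00000027995) was lower in HFD. It stood at 65.2, 81.1 and 75.7 CPM in HFD samples and 116, 142 and 95.1 CPM in control samples. The diets did not overlap, and the log2 fold change was -0.81 ± 0.16 (SE, n = 3 each, edgeR adjusted p = 0.0050). In macrophage-like cells it was -0.67 ± 0.15 (adjusted p = 0.0083), but with only the barcodes of a single sample it was -0.01 (adjusted p = 0.98, with 23.0% of 4323 genes called), and with list genes kept in clustering it was -0.44 and not called. The macrophage-like class held other cells in that clustering, as given above. Monocyte-like cells had 154 CPM of Tlr2 in HFD and 293 CPM in control. Cluster 3 had 135 CPM in HFD cells, and cluster 4 had 21.9 CPM in HFD cells.

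Tlr4 (ENSMUSG00000039005) was low and even, at 17.2, 14.8 and 11.2 CPM in HFD samples and 15.2, 16.5 and 14.0 CPM in control samples. The diets overlapped, and the log2 fold change was -0.21 ± 0.19 (SE, n = 3 each, edgeR adjusted p = 0.43). Macrophage-like cells had 17.7, 18.6 and 10.3 CPM in HFD and 23.6, 25.0 and 21.2 CPM in control samples, which did not overlap, at -0.66 ± 0.24 (adjusted p = 0.060). Without the serous cavity cluster, a selection made after the data were seen, this passed at -0.70 (edgeR adjusted p = 0.047). Fibroblast-like cells carried Tlr4 at 15.1 CPM in HFD and 15.4 CPM in control, near the macrophage level, whereas their Tlr2 was 15.1 CPM in HFD and 10.3 CPM in control.

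Nos2 (ENSMUSG00000020826), the inducible nitric oxide synthase gene, was all but undetected. No UMI was found among the 13840541 UMIs of HFD cells, which allows a level of up to 0.217 CPM (3 counts over the group). A single UMI was found among 8585093 UMIs of control cells, in a cDC2-like cell of control sample 2. The 1086 macrophage-like cells held none. Nos2 was therefore not tested.

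**Figure D3:**
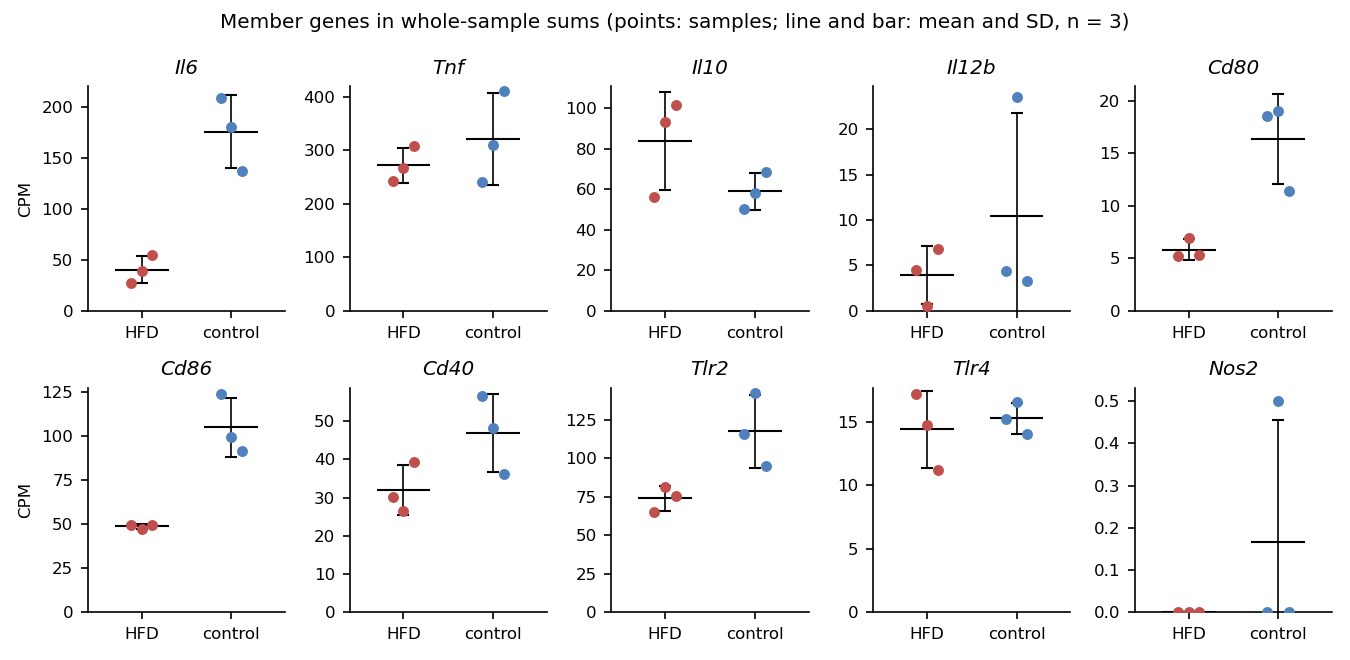
Levels of the 10 genes (CPM, 1 panel a gene, axes from 0) in each of the 3 HFD and 3 control samples, summed over all cells, with points for samples and lines for the mean and SD. Il6, Cd80, Cd86 and Tlr2 do not overlap between the diets, and Nos2 rests on 1 control UMI. SD bars are cut off at 0.

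Over all cells, 9 of the 10 members passed the filter on low counts. Of these, 5 were called lower in HFD (Il6, Cd80, Cd86, Cd40, Tlr2) and 0 higher, where 32.4% of all 10450 genes tested were called either way, 15.2% higher and 17.2% lower. The diets did not overlap for 4 of the 9, all lower in HFD, against 49.5% of all genes either way, 31.8% higher and 17.7% lower. The median log2 fold change of the 9 was -0.81, beside -0.02 over all genes tested. In macrophage-like cells 8 members passed the filter and 5 were called, all lower, where 30.2% of 8760 genes were called, 13.3% higher and 16.9% lower. There 6 of the 8 did not overlap, where 46.3% of all genes did not (26.4% higher, 19.9% lower), and the median was -0.77 beside -0.02 over all genes.

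No member was called higher in HFD in either of these sums, but scaling to the number of cells in place of UMIs moved several values above 0. HFD cells held more UMIs, so the median log2 fold change of all genes stood at 0.63 over all cells and 0.86 in macrophage-like cells on that scale, in place of -0.02 in each. On that scale Il10 was called higher, at 1.02 over all cells and 1.31 in macrophage-like cells, and Tnf at 0.57 in macrophage-like cells, the last of these below the median of all genes. Il6, Cd80 and Cd86 stayed below 0 on that scale in both sums, although Cd80 and Cd86 lost their calls in macrophage-like cells and Cd40 and Tlr2 theirs over all cells.

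**Figure D4:**
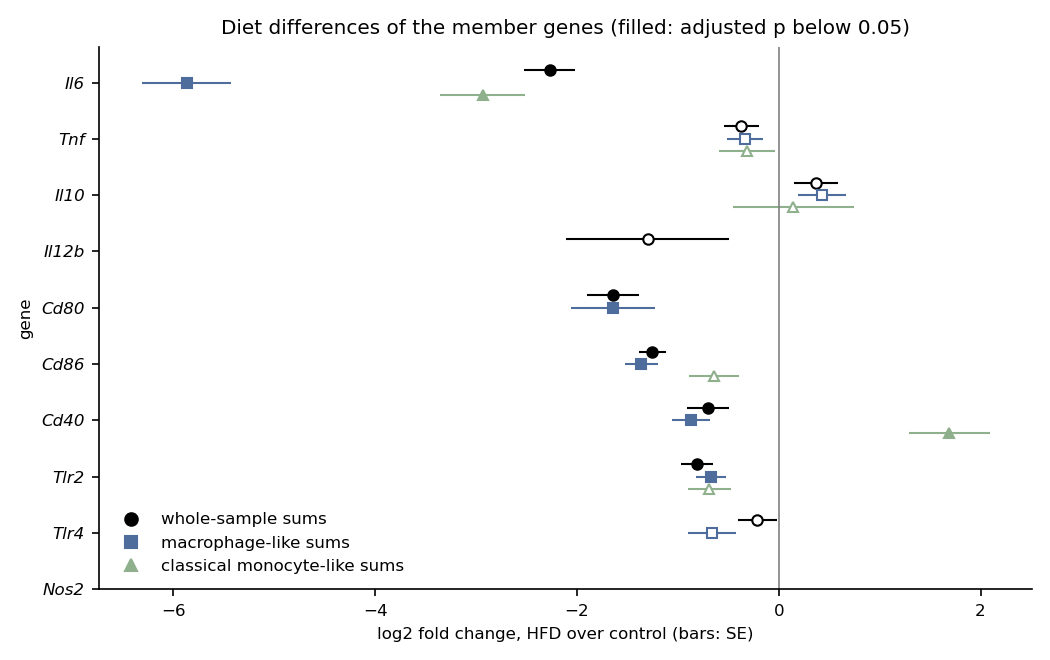
Log2 fold changes of HFD over control with SE for each member in sums of all cells, macrophage-like cells and classical monocyte-like cells, filled where the edgeR adjusted p was below 0.05 and absent where a member was not tested. Il6 lies below 0 in all 3 sums, while Cd40 lies below 0 in macrophage-like cells (-0.87) and above 0 in monocyte-like cells (1.69).

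Classical monocyte-like cells, led by Chil3, Ly6i and Ly6c2 and also by S100a8, S100a9, Cxcl9 and Arg1, could be tested in 3 HFD samples and control samples 2 and 3. The cluster had 4 of 7 monocyte markers raised and also carried all 10 macrophage markers. It made up 13.4% of HFD and 7.71% of control cells. Over all cells, 4 of the 7 monocyte markers were called lower in HFD and 0 higher, where 17.2% of all genes were called lower. They summed to 230 to 293 CPM in HFD and 406 to 902 CPM in control samples. With list genes kept in clustering, a monocyte-like cluster of 122 cells (16, 18 and 15 HFD cells, 15, 33 and 25 control cells in samples 1, 2 and 3) stood beside a macrophage-like cluster of 58 cells led by Cxcl9, Ly6i and Serpina3g (9, 5 and 34 HFD cells, 7, 3 and 0 control cells). The part of such a mixture in the results for Cd40 and Il6 was not tested. Control sample 1 had 16 such cells and was left out. Il6 stood at 13.2, 22.7 and 8.56 CPM in HFD and 78.1 and 147 CPM in control samples, which did not overlap, with a log2 fold change of -2.94 ± 0.42 (SE, n = 3 and 2, edgeR adjusted p = 0.0029). Cd40 ran the other way, at 67.4, 49.4 and 67.2 CPM in HFD and 19.5 and 17.6 CPM in control samples, with a log2 fold change of 1.69 ± 0.40 (edgeR adjusted p = 0.049). The control values rested on 6 and 3 UMIs. Control sample 1, left out, had 60.6 CPM from 10 UMIs, and with it the value was 1.02 (edgeR adjusted p = 0.22).

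Of the 6 members tested in these cells, 1 was called higher and 1 lower, where 2.24% of 5005 genes were called, 0.939% higher and 1.3% lower. Tnf (-0.32), Il10 (0.15), Cd86 (-0.64) and Tlr2 (-0.69) did not pass, with edgeR adjusted p of 0.66, 0.95, 0.24 and 0.14 in that order. The Cd40 call was lost without HFD sample 1 (adjusted p = 0.094), HFD sample 3 (0.10), control sample 2 (0.31) or control sample 3 (0.16). It was also lost with the replicate number as a block, at 1.54. The difference of the Cd40 effects, monocyte-like minus macrophage-like, was 2.43 ± 0.48 (SE, edgeR adjusted p = 0.018, where 1.3% of 7389 genes were called), and 1.86 with control sample 1 kept (adjusted p = 0.018, where 2.31% of 7182 were called).

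**Figure D5:**
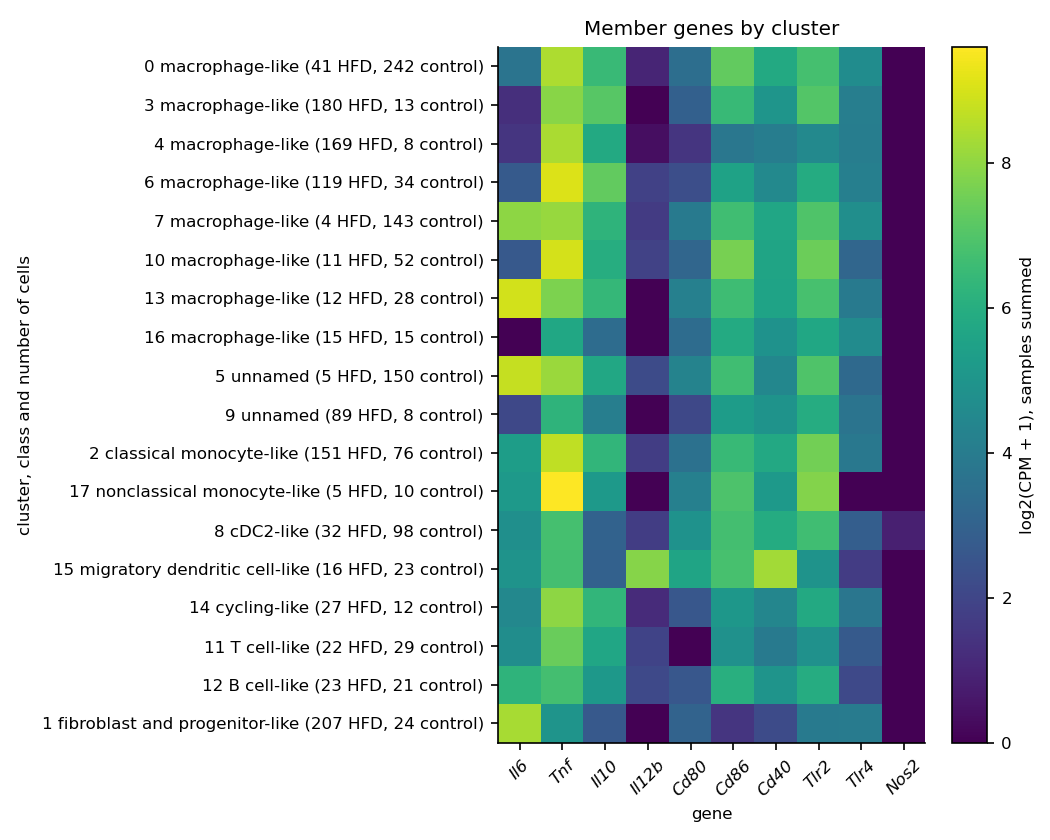
Level of each member, as log2(CPM + 1), in the clusters with the diets pooled. Il12b stands at 231 CPM in the migratory dendritic cell-like cluster and at most 3.61 CPM elsewhere, Il6 is at 491, 438, 321 and 250 CPM in clusters 13, 5, 1 and 7, and Cd86 is lowest in clusters 1 and 4.

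Shares of cells with a UMI, compared at 3000 UMIs per cell, gave the same order as the levels for the costimulatory genes. Cd40 was found in 7.74% ± 1.5 of HFD cells and 12.9% ± 0.58 of control cells, and Cd80 in 1.89% ± 0.71 of HFD cells and 5.43% ± 2.02 of control cells (SD, n = 3 each, exact permutation p = 0.1 for both). Without thinning, Cd40 was found in 24.3% of HFD and 23.5% of control cells, so the order of the diets differed there. Tlr2 was found in 19.1% ± 2.38 of HFD and 23.5% ± 3.38 of control cells (exact permutation p = 0.2), Il10 in 9.23% ± 1.91 and 8.21% ± 2.31 (HFD and control, p = 0.7 by the same exact test) and Tlr4 in 4.43% ± 1.48 and 4.6% ± 0.46 (HFD and control, exact p = 0.8). Il12b was found in 0.71% ± 0.37 of HFD and 0.96% ± 1.21 of control cells (exact p = 0.9), and Nos2 in none. Fibroblast-like cells showed 0.44% for Cd40, 1.33% for Cd80 and for Il10 and 3.11% for Tlr2, and T cell-like cells, some of which can make Il10, showed 5% for Cd40, 0% of 40 cells for Cd80, 7.50% for Tlr2 and for Il10, and 2.50% for Tlr4. All 10 genes were compared in this way, and no design of 3 against 3 samples can give an exact p below 0.1.

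Il6 and Tnf were found together in a smaller share of HFD cells than of control cells. At 3000 UMIs per cell, 8 of 84 HFD cells with Il6 (9.52%) also had Tnf, against 33.9% of HFD cells without Il6. In control, 68 of 162 cells with Il6 (42.0%) had Tnf, against 40.7% of those without. Most Il6 UMIs of HFD cells lay in fibroblast-like cells, as given above, and 8% of fibroblast-like cells had Tnf at this depth. Among macrophage-like cells with the diets pooled, 33 of 70 with Il6 (47.1%) had Tnf, against 43.9% of those without. Few of these 70 were HFD cells, by the shares above. The part of the cell mixture in the pooled shares was not tested. Il10 was found in 14.2% of HFD cells with Tnf and 6.70% of those without, and in 11.7% of control cells with Tnf and 6.32% of those without. These shares describe cells pooled over samples and carry no test.

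Across the 17 clusters of at least 30 cells, genes most like each member in log2(CPM + 1) were picked by Pearson's r, as a description of clusters that share libraries and differ in depth. For Il6 they were Prkd3 (r = 0.82) and Nfil3 (0.78), and for Tnf they were Cxcl2 (0.86), Slfn2 (0.85) and Ccl4 (0.84). Cxcl2 was also nearest to Il10 (0.93), followed by Gdf15 (0.87) and Hs6st1 (0.85). Il12b went with Tmem123 (0.95), Psmg4 (0.91) and Ccl22 (0.88). Cd86 was nearest to Pld4 (0.92), Il10ra (0.90) and Rassf4 (0.89), Cd80 to Ctsh (0.78), Arf2 (0.77) and Spata6 (0.75), and Cd40 to Rnf114 (0.88), Phf11b (0.88) and Ebi3 (0.83). Tlr2 was nearest to Fcgr2b (0.90), Clec4n (0.88) and Pld4 (0.88), and Tlr4 to Rin2 (0.91) and Qk (0.86).

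Other genes of the same pathways were read from lists. Of 31 tested genes on the signal path of Toll-like receptors, 1 rose and 8 fell in HFD over all cells, with a median log2 fold change of -0.34, where 32.4% of all genes tested were called (15.2% higher, 17.2% lower) and their median was -0.02. These shares stand beside all list counts over all cells that follow. The NF-kB subunit genes Rel (-1.25 ± 0.16) and Nfkb1 (-0.65 ± 0.09) and the kinase gene Ikbkb (-0.72 ± 0.11) fell, and Tlr13, a receptor for bacterial RNA, rose by 1.04 ± 0.18 (SE, edgeR adjusted p from 0.00076 to 0.0026). Of 15 feedback inhibitors 1 rose and 9 fell: Socs3, a brake on interleukin 6 family receptors, rose by 0.83 ± 0.11, and Nfkbiz, which helps switch on Il6, fell by 0.97 ± 0.13 on the log2 scale. In macrophage-like cells 1 rose and 6 of 27 fell on the signal path, and 1 rose and 5 of 15 fell among the inhibitors, where 13.3% of all genes tested there were called higher and 16.9% lower.

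Of 12 other costimulatory and coinhibitory ligands tested over all cells, 0 rose and 4 fell, among them Icam1 (-0.74 ± 0.14) and Cd274 (-1.27 ± 0.34). The share called either way was close to the 32.4% of all genes, of which 15.2% were called higher and 17.2% lower. Of 10 other cytokines, 1 rose and 4 fell: Il1b stood at -1.48 ± 0.16 and Lif, a relative of interleukin 6, at -3.25 ± 0.49, while Csf1, the macrophage growth factor gene, rose by 1.67 ± 0.29. Of 8 receptors of these cytokines, 1 rose and 2 fell, with Il10rb at 0.52 ± 0.09, Il10ra at -0.71 ± 0.10 and Tnfrsf1b, a receptor for Tnf, at -0.40 ± 0.09. Of 14 other genes of classical activation, 0 rose and 4 fell, with Ptgs2 at -1.44 ± 0.28, Cxcl10 at -1.60 ± 0.42, Cd38 at -1.53 ± 0.25 and Marcks at -0.40 ± 0.11 (all SE, edgeR, n = 3 each). In macrophage-like cells 1 rose and 1 fell of 9 such ligands, with a median log2 fold change of 0.02, and their summed level was 1569 to 1841 CPM in HFD and 1321 to 1526 CPM in control samples, higher in HFD without overlap. There 1 rose and 2 fell of 8 cytokines, 1 rose and 1 fell of 6 receptors, and 1 rose and 5 fell of 11 genes of classical activation. Csf1 and Lif were not among these 8 cytokines, since neither passed the filter on low counts in macrophage-like cells.

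Genes that respond to tissue digestion moved with these results. Of 21 dissociation and immediate early genes, 0 rose and 13 fell over all cells, where 17.2% of all genes fell, and 0 rose and 17 fell in macrophage-like cells, where 16.9% of all genes fell, among them Nr4a1 (-1.17 ± 0.11 over all cells) and Ier3 (-1.37 ± 0.17). Their summed level was 17065 to 17557 CPM in HFD and 18016 to 19812 CPM in control samples over all cells, and 15850 to 17406 CPM in HFD and 20043 to 22619 CPM in control samples in macrophage-like cells. None was at 0, and their part in the results for Il6, Cd86 and the other members was not tested. Hspa1a and Hspa1b, near-identical copies in this list, are uncertain singly.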

How the data were processed

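Visceral fat cells of 6 samples were profiled as single cells. The authors deposited whole-number UMI counts per gene and cell, not normalized, per the file contents. The submitters' processing notes name Cell Ranger, Seurat 2.4 and build mm9 without a role, and the cell calling step has no description in the sources used here. The promoter table is of GRCm38.p6 and was matched by symbol, so no coordinate was carried between builds.

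The members and gene lists were chosen with earlier results of these data known. All 10 members are named whatever their values, with up to 4 called genes of smallest p per list and the 3 genes most like each member over clusters (members of at least 100 UMIs, genes averaging at least 20 CPM). Not all genes chosen by this rule are reported here. Cells with at least 200 genes and at most 10% mitochondrial UMIs were kept, which removed 109 of 5511 entries, and each barcode was counted in the sample where it had most UMIs. Doublets were not removed. Clustering used 2000 variable genes, 30 principal components and 20 neighbours (scanpy 1.11.5, leidenalg 0.10.2, resolution 1), leaving out 135 member and list genes. Clusters were named from 23 marker lists, with naming thresholds chosen after the data were seen.

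Counts summed per sample and class were tested with edgeR 4.0.16 (quasi-likelihood, TMM, filterByExpr, Benjamini-Hochberg adjustment over all genes tested, threshold 0.05) under R 4.3.3, as HFD over control, and checked on simulated data. CPM values use all UMIs of the summed cells. Shares were compared by exact permutation over 20 arrangements after thinning to 3000 UMIs. Alternatives were DESeq2 1.42.0 (test and size factors), no filter, cell numbers as library size, a replicate block, each sample left out, other barcode rules, other clusterings and other thinning depths. Sums held 1997647 to 5708323 UMIs per sample, where 3 counts correspond to 0.526 to 1.50 CPM.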

Additional observations from a re-analysis of the deposited data

Results flagged for a closer look

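Cd40 was the only member whose diet effect was called as differing between these 2 cell classes in the fit of 5 samples described here. In classical monocyte-like cells it was called higher in HFD and in macrophage-like cells it was called lower. The monocyte-like cluster had 4 of 7 monocyte markers raised and also carried all 10 macrophage markers, as given above. The difference of the 2 effects, monocyte-like minus macrophage-like, was 2.43 ± 0.48 on the log2 scale (SE, edgeR adjusted p = 0.018 over 7389 genes, of which 96 or 1.3% were called), in a fit over 3 HFD samples and control samples 2 and 3 that was added after the data were seen. With control sample 1 included it was 1.86 (adjusted p = 0.018, with 2.31% of 7182 genes called). Without control sample 2 it was 2.54 (adjusted p = 0.11) and without control sample 3 it was 2.41 (adjusted p = 0.055), each time leaving 1 control sample, which is assumed to vary like the others. Every HFD sample stood above control samples 2 and 3 in monocyte-like cells and below all 3 control samples in macrophage-like cells. The control values in monocyte-like cells rest on 6 and 3 UMIs, and control sample 1 there, at 60.6 CPM from 10 UMIs, lay within the HFD range. No sample of a group could be checked for standing apart, since groups of 3 are too small for that. The trait is not particular to Cd40. Il6 was lower in HFD in both classes, and its difference of effects was larger, at 2.65 ± 0.66 (SE, edgeR adjusted p = 0.057). With control sample 1 included the Il6 difference was 2.67 and was called (edgeR adjusted p = 0.021). It was 1.49 without control sample 2 and 3.59 without control sample 3.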

How the results depend on the processing

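Of 506 member results over the alternatives, 428 kept their direction and side of the threshold, 29 lost a call, 14 gained one and 35 changed sign. Share results made up 109 of the 428 and 11 of the 35. Their exact p cannot fall below 0.1, so their side of the threshold was fixed in advance and does not speak for stability. Among the 109 were 12 for Nos2, which was all but undetected. With the number of cells as the library size, which shifts all genes upward, over all cells Tnf was 0.30 and Tlr4 0.44, in macrophage-like cells Tnf 0.57, Cd40 0.015, Tlr2 0.21 and Tlr4 0.22, and in monocyte-like cells Tnf 0.40, Cd86 0.065 and Tlr2 0.037. Called genes then numbered 6090, 5886 and 1186, in place of 3389, 2642 and 112, and 93.5%, 95.5% and 97.5% of them were higher, in place of 47.0%, 44.0% and 42.0%. With only barcodes of a single sample, Il10 was -1.15 and Tlr4 0.38 over all cells (1940 genes called), Il10 -0.74 without fibroblast-like cells (1219 called), Il10 -0.37 in macrophage-like cells (994 called), and the Il10 share -3.23 percentage points. At resolution 0.5 Il10 was -0.37 in macrophage-like and -0.27 in monocyte-like cells (38 called there). The macrophage-like class held other cells at that setting. A cluster of 381 cells with Il10 among its leading genes carried all 10 macrophage markers but stayed unnamed. It had 115, 83 and 114 HFD cells and 18, 24 and 27 control cells in samples 1, 2 and 3. With every entry counted, monocyte-like Tnf was 0.43 (4 called) and the Tlr4 share 0.054 points. The other differing counts were 1702 (DESeq2) and 1703 (list genes kept in clustering) in macrophage-like cells, 282 without a filter in monocyte-like cells and 166 with all 6 samples for the difference of effects, where Il10 was 0.096. Share differences were 0.21 points for Il12b and 0.41 for Tlr4 at 1500 UMIs, and 0.79 for Cd40 and 5.23 for Tlr4 unthinned. The causes were not tested.

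Leaving out 1 sample gave 2233 to 3334 called genes over all cells, 1590 to 2742 in macrophage-like cells, 26 to 114 in monocyte-like cells and 39 to 107 for the difference of effects. In monocyte-like cells Il10 ranged from -0.92 to 0.46 (-0.21 without control sample 2) and Tnf from -0.64 to 0.043. The difference of effects ranged from -0.32 to 0.54 for Tnf (-0.046 without control sample 2) and from -0.17 to 0.13 for Tlr2 (0.0055 without HFD sample 3). Share differences ranged from -0.98 to 0.48 points for Tlr4 (0.0025 without HFD sample 3, 0.083 without control sample 2), -0.31 to 1.94 for Il10 and -0.73 to 0.42 for Il12b. Where a monocyte fit kept 1 control sample, that sample is assumed to vary like the others.

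Same-numbered samples' deviations from their diet means correlated at -0.157, -0.069 and -0.121 over all cells. In macrophage-like cells the values were -0.225, 0.0081 and -0.093. With 3 samples per diet, each centred on its diet mean, these values cannot show whether the replicate numbers pair the samples. With the replicate number as a block, 2416, 1973 and 140 genes were called over all, macrophage-like and monocyte-like cells, and Cd40 lost its call over all cells (-0.70, adjusted p = 0.083) and in monocyte-like cells. Monocyte-like sums could not be fitted with barcodes of a single sample or with list genes kept in clustering, since too few samples had 20 cells. Depth limits Nos2, Il12b and Cd80.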
